A study of Homo sapiens with 6 samples.

Results

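The 10 tubulin genes described here are TUBA1A, TUBA1B, TUBA1C and TUBA4A, which encode alpha-tubulin, and TUBB, TUBB2A, TUBB2B, TUBB3, TUBB4B and TUBB6, which encode beta-tubulin. They were taken by symbol from a list made with earlier results of these data known. All 10 were present among the 19669 named genes of the deposited table. Messenger RNA (RNA-seq) and ribosome footprints (Ribo-seq, the mRNA fragments that ribosomes shield from nuclease) were measured in 786-O cells, a line from a clear cell renal carcinoma. The 3 labels were EV, with empty vector, WT and MT, and each had 1 RNA-seq and 1 Ribo-seq library. The title ties WT to full-length PHYHD1 and MT to PHYHD1 without positions 107 to 130, whereas the design text calls the wild-type group untreated and MT the group overexpressing PHYHD1, so the libraries are named by label only. PHYHD1 belongs to the iron- and 2-oxoglutarate-dependent dioxygenases. The sources used here do not state which promoter drove it or whether the lines were clones or pools. With 1 library per label and assay there is no replicate error and no test, and every difference below is between libraries.

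Alpha- and beta-tubulin fold with the help of the chaperonin CCT and dedicated cofactors, join as a stable dimer and polymerise into microtubules, which carry transport and form the mitotic spindle. Each subunit comes from several genes whose proteins are much alike and differ most at the acidic C-terminal tail. Cells hold tubulin near a set point: when free dimer is plentiful, TTC5 recognises the first residues of nascent tubulin on the ribosome and, through SCAPER and the CCR4-NOT deadenylase, marks the translating mRNA for decay. TUBB3 is known as the neuronal beta-tubulin but is also made in many carcinoma lines, and TUBA1A and TUBB2B are prominent in the developing brain.

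PHYHD1 itself, as a check of the labels, had mRNA values of 0.092 (EV), 118 (WT) and 109.5 FPKM (MT) and footprint values of 0 (EV), 222 (WT) and 905 TPM (MT). A WT library with that much PHYHD1 does not match the word untreated in the design text. Of 7 markers fixed for 786-O cells, all were at 4.996 units or more in the 6 libraries, among them the kidney lineage factor gene PAX8 (74.5 to 98.8 units) and vimentin (VIM, 1662 to 1911 units). Of 8 markers of other cells, PECAM1 and COL3A1 were listed at 0 throughout, while COL1A1 stood at 0.449 to 1.54 units. The neuronal marker genes SYP and SNAP25 stood at 0 to 0.132 and 0.525 to 2.50 units. PTPRC was at 0 to 0.071, EPCAM at 0 to 0.363 and CDH1 at 0 to 0.103 units. FPKM and TPM, the units assumed here from the column sums, both scale reads to a gene's length and to library size. Which length was used is not given. Read totals are unknown.

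The genes differ in their promoters. RefSeq promoter sequences (build GRCh38.p14) were found for all 10 genes, at 15 listed start sites. The 80 bases before the start are shown for the 4 abundant genes (TUBA1B, TUBA1C, TUBB and TUBB4B) and for TUBA1A and TUBB3, on whose footprints much of what follows turns. Capitals mark TATAA, the core of a TATA box, and CCAAT, the core of a CCAAT box, on either strand (TTATA and ATTGG), and no capital belongs to both. Of the 3 listed starts of TUBA1C and the 2 of TUBB3 only the one with TATAA is shown. Which starts these cells use cannot be read from values per gene.
TUBA1B, chr12:49131396-49131475, minus strand: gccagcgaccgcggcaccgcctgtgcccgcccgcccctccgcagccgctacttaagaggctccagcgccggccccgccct
TUBA1C, start 3 of 3, chr12:49265002-49265081, plus strand: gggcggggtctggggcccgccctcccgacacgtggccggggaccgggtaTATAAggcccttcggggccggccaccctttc
TUBB, start 1 of 2, chr6:30720272-30720351, plus strand: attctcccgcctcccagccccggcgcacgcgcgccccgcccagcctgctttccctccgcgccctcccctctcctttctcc
TUBB, start 2 of 2, chr6:30721558-30721637, plus strand: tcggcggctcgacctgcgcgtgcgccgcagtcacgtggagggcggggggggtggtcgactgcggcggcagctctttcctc
TUBB4B, chr9:137241207-137241286, plus strand: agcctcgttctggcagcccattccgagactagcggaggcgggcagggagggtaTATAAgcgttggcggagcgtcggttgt
TUBA1A, chr12:49189081-49189160, minus strand: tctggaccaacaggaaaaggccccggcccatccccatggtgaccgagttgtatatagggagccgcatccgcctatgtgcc
TUBB3, start 2 of 2, chr16:89923262-89923341, plus strand: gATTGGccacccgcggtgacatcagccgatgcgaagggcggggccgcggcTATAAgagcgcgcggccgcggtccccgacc

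TATAA lay within these 80 bases at 5 of the 15 tubulin starts, those of TUBA1C, TUBA4A, TUBB2A, TUBB3 and TUBB4B, and in the same window of 7.78% of 35116 listed promoters. Within 250 bases it lay at the same 5 starts and in 18.9% of all promoters. CCAAT lay within the 80 bases at 2 of the 15 starts and in 14.7% of all promoters, and within 250 bases at 9 of the 15 starts, in 7 of the 10 genes, and in 32.0% of all promoters. The abundant TUBA1B and TUBB had no exact TATAA in the window, nor had TUBA1A. These are matches of letters only.

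TUBA1B, a broadly expressed alpha-tubulin gene, had the most abundant tubulin mRNA, with 1669 FPKM for EV, 1666 for WT and 1638 for MT, between rank 16 and rank 19 of all genes. The 3 values are close to level. TUBA1C, its neighbour on chromosome 12, had 838 FPKM for EV, 950.4 for WT and 949 for MT, so that EV was the lowest. TUBA4A, an alpha-tubulin gene on chromosome 2 whose product ends without the terminal tyrosine, had 59.9, 71.5 and 56.5 FPKM. TUBA1A, the remaining gene of the chromosome 12 group, stood far below the others with 5.40, 6.34 and 4.045 FPKM.

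TUBB, the general beta-tubulin gene, had 955 FPKM for EV, 1003 for WT and 1065 for MT. TUBB4B, also broadly expressed, had 563, 583 and 608 FPKM in the same order. Both were lowest in EV and highest in MT. TUBB6, a divergent beta-tubulin, had 77.35 FPKM for EV, 87.0 for WT and 88.7 for MT, and TUBB3 had 70.4, 67.15 and 50.4 FPKM. TUBB2A had 23.0, 27.5 and 23.1 FPKM, whereas its neighbour on chromosome 6, TUBB2B, had 1.15, 0.751 and 1.06 FPKM. In order of mRNA level the genes ran TUBA1B, TUBB, TUBA1C, TUBB4B, TUBB6, then TUBB3 and TUBA4A, whose ranges over the 3 labels overlapped, then TUBB2A, TUBA1A and TUBB2B.

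Footprints kept the leading gene but not the order below it. TUBA1B had 2854 TPM for EV, 2954 for WT and 2736 for MT, and TUBA1C, now second, had 1288, 1336 and 1307 TPM. TUBB had 1036 TPM for EV, 1138 for WT and 945 for MT. TUBB4B had 708, 678 and 666 TPM. TUBB3 had 285 TPM for EV, 179 for WT and 255 for MT, so that WT was the low library and its range overlapped that of TUBB6 (198, 214 and 196 TPM). TUBA4A had 124 TPM for EV, 113 for WT and 124 for MT. TUBA1A, ninth of the 10 in mRNA, was eighth in footprints with 91.8, 71.5 and 84.5 TPM, above TUBB2A with 66.7, 62.9 and 61.2 TPM. TUBB2B stood at 0.553, 0.704 and 0.364 TPM, below 1 TPM in every library, so it entered no footprint comparison.

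**Figure D1:**
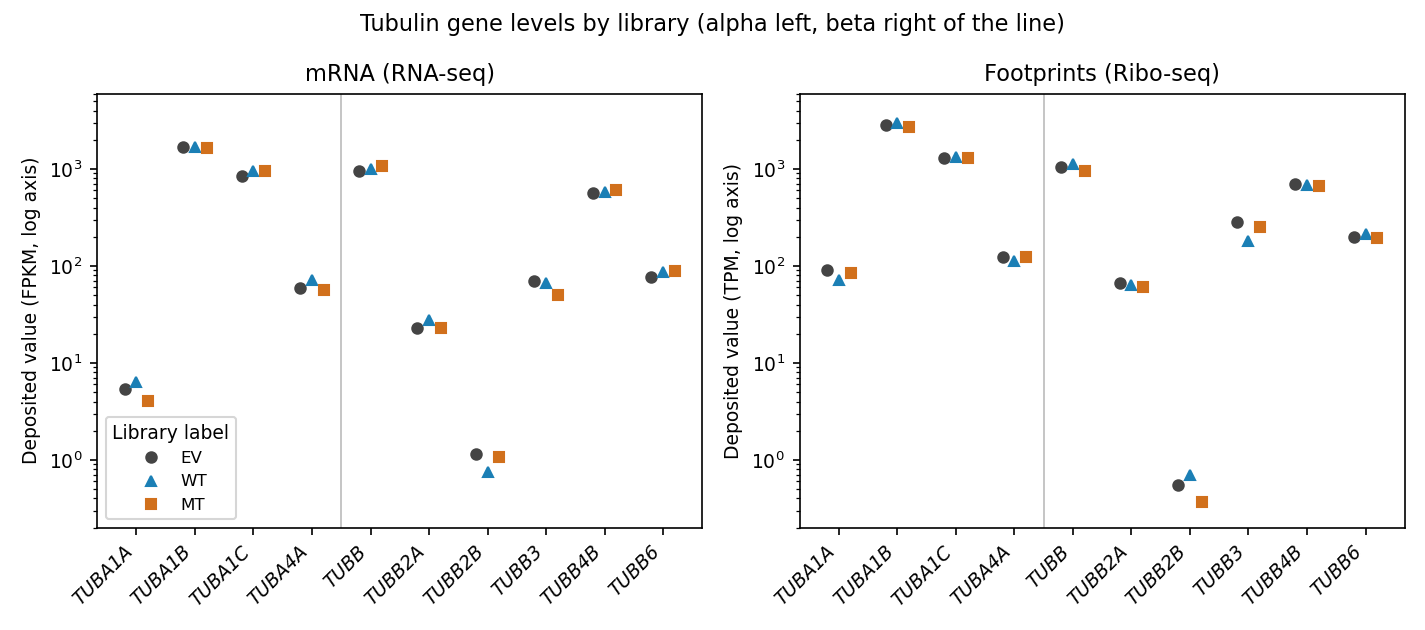
Deposited levels of the 10 tubulin genes on log axes, mRNA in FPKM (left panel) and footprints in TPM (right panel), with 1 point per library and the shape and colour giving the label. The 3 labels sit close together for the abundant genes, and TUBA1A is at 4.045 to 6.34 FPKM in mRNA but at 71.5 to 91.8 TPM in footprints.

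The paralogues share long stretches of coding sequence, and RefSeq lists 11 pseudogenes named after TUBB and 8 named after TUBB4B. The sources used here do not state how reads that match several copies were assigned, so the split of reads between members is uncertain, most of all where a scarce gene lies beside an abundant one (TUBA1A beside TUBA1B and TUBA1C). In RefSeq TUBA4A overlaps STK16 and TUBA4B, TUBB4B overlaps CIMIP2A and TUBB6 overlaps AFG3L2; TUBA4B was at 0 to 0.178 units and AFG3L2 at 18.2 to 43.6 units. Sums over a family depend less on that split, but still on the members' lengths, to which the values are scaled, and on whether reads with several matches were kept.

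The alpha-tubulin mRNA sum was 2572 FPKM for EV, 2694 for WT and 2648 for MT, and the beta-tubulin sum was 1691, 1768 and 1836 FPKM. In footprints the alpha sum was 4358 TPM for EV, 4474 for WT and 4252 for MT, and the beta sum was 2293, 2273 and 2123 TPM. Alpha exceeded beta in all 6 libraries. The alpha-to-beta ratio was 1.52, 1.52 and 1.44 in mRNA and 1.90, 1.97 and 2.003 in footprints (EV, WT, MT), so it was larger in footprints under every label. The assays have different units and the lengths used are not given, so the part that scaling played in this was not tested. The same limit holds for the shares below. TUBA1B, TUBA1C, TUBB and TUBB4B made up 94.2% to 95.0% of the tubulin mRNA sum and 88.5% to 90.5% of the footprint sum. All 10 genes came to 0.907%, 0.970% and 0.970% of the RNA-seq column totals and 0.665%, 0.675% and 0.637% of the Ribo-seq totals.

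TUBB3, TUBB6 and TUBB2A took a larger share of beta footprints than of beta mRNA under every label, and TUBB, TUBB4B and TUBB2B did not. TUBB3 made up 4.17%, 3.80% and 2.74% of the beta mRNA sum and 12.4%, 7.89% and 12.0% of the beta footprint sum in EV, WT and MT. TUBB6 made up 4.58% to 4.92% of mRNA and 8.63% to 9.43% of footprints, and TUBB2A 1.26% to 1.55% and 2.77% to 2.91%. TUBB went the other way, with 56.5% to 58.0% of mRNA and 44.5% to 50.1% of footprints, as did TUBB4B (33.0% to 33.3% and 29.8% to 31.4%) and TUBB2B (0.0425% to 0.0678% and 0.0171% to 0.0310%). Among alpha genes the shares of TUBA1B were alike in both assays (61.8% to 64.9% and 64.3% to 66.0%), and that of TUBA1A was 0.153% to 0.235% of mRNA and 1.60% to 2.11% of footprints.

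**Figure D2:**
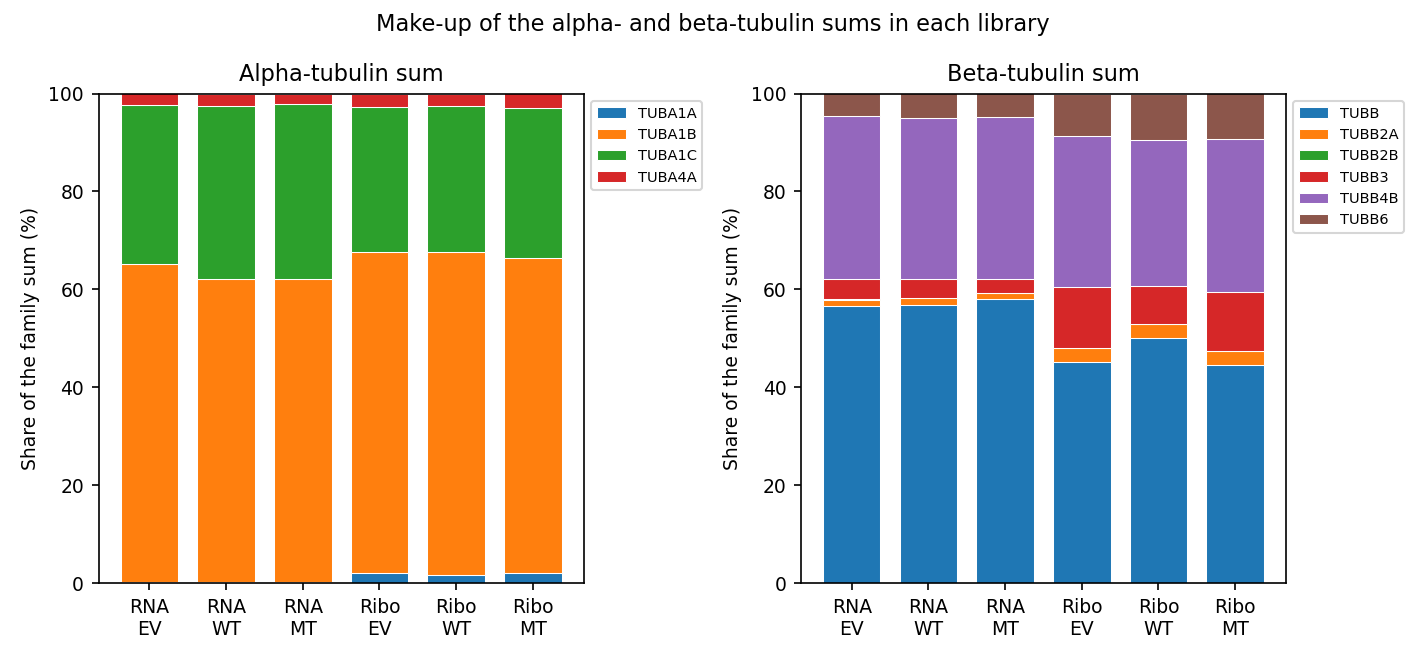
Share of each gene in the alpha-tubulin sum (left panel) and beta-tubulin sum (right panel), in percent, with 1 stacked bar per library. The TUBB3 segment is 12.4% and 12.0% of beta footprints in EV and MT and 7.89% in WT, against 2.74% to 4.17% of beta mRNA.

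The ratio of footprint to mRNA value shows the same contrast gene by gene. The 2 assays have different units, and whether lengths were of transcripts or coding regions is not given, so a ratio is read only by its place among genes at 10 units or more in both assays of a label (5031, 5100 and 5053 genes, median ratios 1.44, 1.42 and 1.43). TUBB was low, with ratios of 1.08, 1.14 and 0.887 (percentiles 36.3, 38.2 and 26.3 in EV, WT and MT), as was TUBB4B with 1.26, 1.16 and 1.10 (percentiles 43.3, 39.5 and 37.0). TUBA1C lay at percentiles 52.9, 49.5 and 48.4 and TUBA1B at 58.3, 60.4 and 57.4. TUBB2A (percentiles 71.5 to 79.98), TUBB6 (69.6 to 75.4) and TUBA4A (54.7 to 69.6) lay above the median gene. TUBB3 was the highest of the 8 members in this set, with ratios of 4.04, 2.67 and 5.06 at percentiles 88.3, 77.7 and 91.6, lowest in WT. Of these 8 members 6, 5 and 5 lay above the median. The median depends on the minimum: among genes at 100 units or more in both assays the median ratios were 2.04, 2.01 and 1.997. None of the 4 members measured there lay above the median. TUBB3, TUBB6 and TUBB2A, with the highest ratios of the 8 members, and TUBA4A did not reach 100 FPKM. Whether ratios rise with abundance was not tested, as the minimum itself removes genes with few footprints.

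TUBA1A did not reach 10 FPKM and stood apart. Its footprint-to-mRNA ratios were 17.0 (EV), 11.3 (WT) and 20.9 (MT), at percentiles 99.3, 98.6 and 99.5 among genes at 1 unit or more in both assays. Its neighbour TUBA1B had ratios of 1.71, 1.77 and 1.67. The part that reads shared with TUBA1B and TUBA1C played in this ratio was not tested. The summed alpha value does not turn on it, as TUBA1A held at most 2.11% of alpha footprints.

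**Figure D3:**
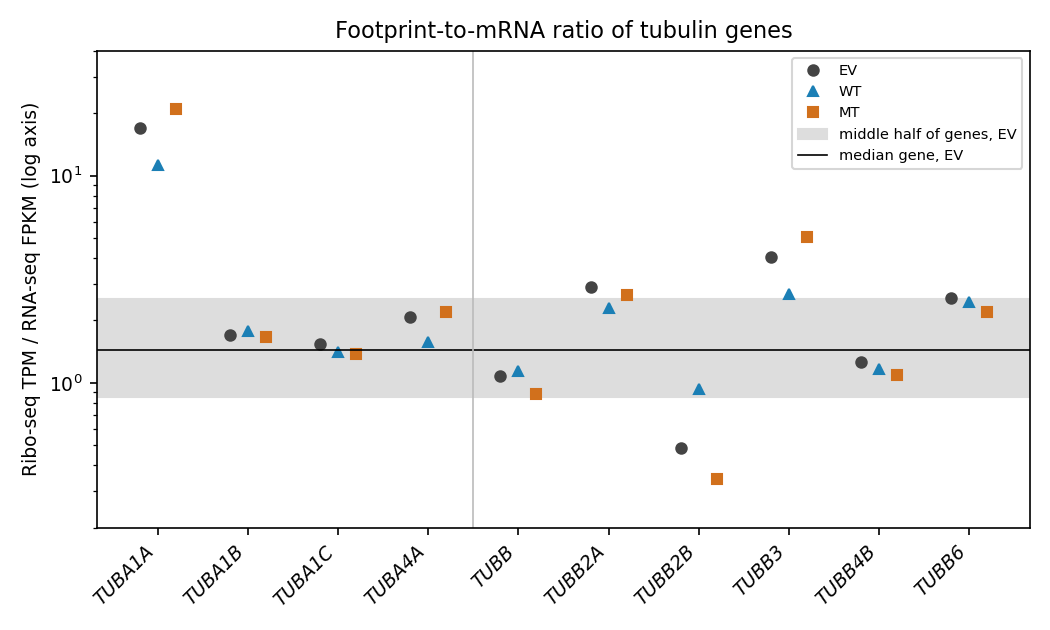
Ribo-seq TPM divided by RNA-seq FPKM for each tubulin gene on a log axis, with 1 point per label. The line and grey band give the median and the middle 50% of genes at 10 units or more in EV, and no band is drawn for WT or MT. TUBA1A and TUBB2B did not reach 10 FPKM and are not in the set behind the band. TUBA1A lies at 11.3 to 20.9, TUBB3 at 2.67 to 5.06 and TUBB at 0.887 to 1.14.

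Comparing mRNA between labels asks whether tubulin levels differed with the PHYHD1 label. A gene entered when either library held 1 unit or more, and was called when value + 1 differed by 2-fold or more, a rule of size. In WT over EV 0 of the 10 members passed, with 0.499% of 11032 genes called. The members' median log2 difference was 0.12, with 7 of 10 above 0, beside a median of -0.01 and 48.9% above 0 over all genes. The differences ran from -0.29 (TUBB2B, near 1 FPKM, and -0.55 with 0.1 added) to 0.25 (TUBA4A and TUBB2A). Those of TUBA1C (0.18), TUBB (0.07), TUBB4B (0.05) and TUBA1B (-0.003) may be read against the spread of genes at 100 FPKM or more (robust SD 0.12, from the median absolute deviation). That spread mixes error with real differences. A difference as large as that of TUBA1C was found in 111 of 662 such genes, a count that, like those below, includes the gene itself. In these bulk libraries fewer cells with a transcript and less of it per cell cannot be told apart.

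In MT over EV 0 of 10 members passed, with 0.29% of 11016 genes called. The median was -0.01, with 5 members above 0 and 5 below. TUBB3 had the largest difference, -0.48 on the log2 scale (0.719-fold). Of 1542 genes at 50 FPKM or more in both libraries, 9 differed as much in either direction. The MT value of TUBB3, 50.4 FPKM, lies just above that minimum. TUBA1A had -0.34 at 4 to 6 FPKM (-0.13 with 10 added in place of 1), and TUBB6 (0.20), TUBA1C (0.18), TUBB (0.16) and TUBB4B (0.11) lay above 0. The beta mRNA sum was 1.09 times that of EV and the alpha sum 1.03 times. Both comparisons use the EV library, so the like values of TUBA1C in them (0.18 and 0.18) are not independent.

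Between WT and MT 0 of 10 members passed, with 0.508% of 11013 genes called. TUBA1A (0.54, or 0.22 with 10 added), TUBB3 (0.41), TUBA4A (0.33) and TUBB2A (0.24) were above 0, and the 4 abundant genes lay between -0.09 (TUBB) and 0.02 (TUBA1B). The sum of all 10 genes in WT was 0.995 times that in MT.

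In footprints, WT over EV held 0 of 9 measured members past the rule, with 3.36% of 10700 genes called. TUBB3 lay farthest from 0, at -0.66 (0.631-fold), and 11 of 1396 genes at 100 TPM or more in both libraries differed as much. Its mRNA difference in the same comparison was -0.07. TUBA1A had -0.36. The rest lay between -0.14 (TUBA4A) and 0.14 (TUBB), within the robust SD of 0.20 of genes at 100 TPM or more. The members' median was -0.06 beside 0.03 over all genes. The alpha sum was 1.03 times and the beta sum 0.991 times that of EV.

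In MT over EV 0 of 9 members passed, with 2.83% of 10737 genes called. TUBA1C alone was above 0 (0.02) and 8 members were below, from -0.16 (TUBB3) to -0.0004 (TUBA4A), whose sign turned to plus when libraries were rescaled without mitochondrially encoded, histone and PHYHD1 genes. The differences were small: TUBB had -0.13 and 516 of 1426 genes at 100 TPM or more differed as much. The median was -0.09, beside 0.01 over all genes, with 52.1% of all genes above 0. The beta footprint sum was 0.926 times that of EV while the beta mRNA sum was 1.09 times.

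Between WT and MT 0 of 9 members passed, with 3.19% of 10752 genes called. TUBB3 was again lowest at -0.51, a size reached by 38 of 1414 genes at 100 TPM or more, and TUBB was highest at 0.27, reached by 236 of them. The low TUBB3 footprint value is thus that of the WT library against either other library, and the low TUBB3 mRNA value is that of the MT library. With 1 library each, the label and the library cannot be told apart.

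**Figure D4:**
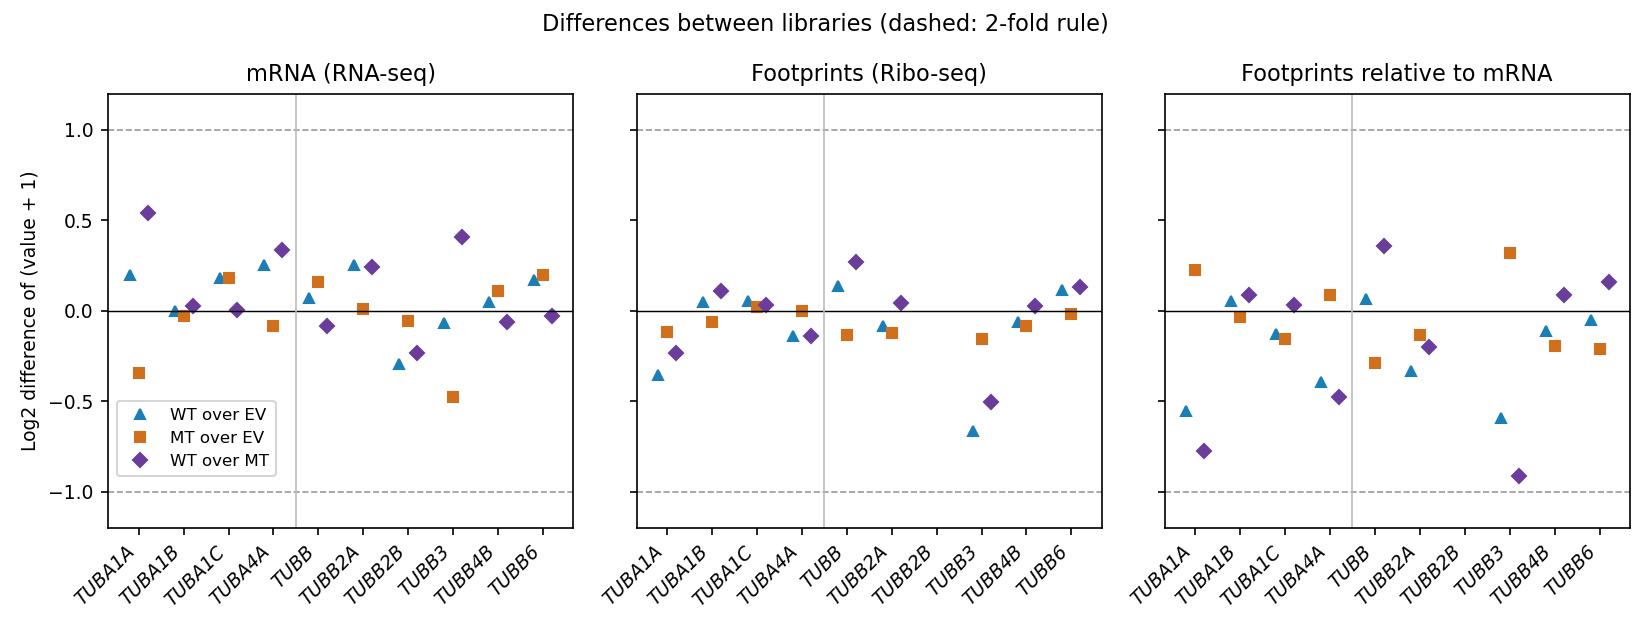
Log2 differences of value + 1 for the tubulin genes in mRNA, footprints and footprints relative to mRNA, with 1 symbol per pair of labels and dashed lines at the 2-fold rule. No point reaches a dashed line; TUBB3 comes nearest, at -0.91 in footprints relative to mRNA of WT over MT. TUBB2B is absent from the last 2 panels because its footprints were below 1 TPM.

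Translational efficiency was taken as the footprint log2 difference minus the mRNA log2 difference, over genes at 1 unit in both assays. In WT over EV 0 of 9 members passed the rule, with 4.21% of 10335 genes called. TUBB3 (-0.60), TUBA1A (-0.55), TUBA4A (-0.39) and TUBB2A (-0.33) were lowest, TUBB (0.07) and TUBA1B (0.05) were above 0, and the median of -0.13 stood beside 0.04 over all genes. In MT over EV 0 of 9 passed, with 3.51% of 10331 genes called. Here TUBB3 was the highest (0.32) and TUBB the lowest (-0.29), a size that 67 of 575 genes at 100 units or more reached. In WT over MT 0 of 9 passed, with 4.82% of 10352 genes called. TUBB3 had -0.91 (0.531-fold), which 12 of 1247 genes at 50 units or more reached, TUBA1A had -0.78 and TUBB had 0.36. The mRNA of TUBB3 in MT, 50.4 FPKM, lies just above that minimum. The efficiency of TUBA1A rests on an mRNA of 4 to 6 FPKM and hung on the value added: with 10 it was 0.02 in MT over EV, where it had been 0.22, and -0.43 in WT over MT. The large value of TUBB3 joins its low footprints in WT to its low mRNA in MT.

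Other genes of the tubulin pathway were taken from 6 lists of 104 genes. In mRNA 0 of 81, 80 and 81 measured genes passed the 2-fold rule in WT over EV, MT over EV and WT over MT. Of all genes 0.499%, 0.29% and 0.508% were called there, so lists of this size would hold few calls in any case. In footprints 3 were higher and 1 lower of 80 in WT over EV (5%, beside 3.36% of all genes), 0 of 80 passed in MT over EV (2.83% of all genes), and 2 of 79 were lower in WT than in MT (2.53%, beside 3.19%). These shares are near those of all genes, so the genes named next are single values and say nothing of the lists. Delta-tubulin (TUBD1), found at centrioles, was higher in WT, with 5.56 TPM for EV, 16.6 for WT and 11.04 for MT, while its mRNA stood at 5.80, 6.77 and 5.24 FPKM. SVBP, the partner that vasohibins need to remove the terminal tyrosine of alpha-tubulin, was lower in WT (16.9 TPM for EV, 6.115 for WT and 18.4 for MT), with mRNA at 7.09, 6.46 and 5.41 FPKM. The footprints of its enzyme partners VASH1 and VASH2 were listed at 0 to 0.102 TPM. The gamma-tubulin gene TUBG2 (4.29 TPM in EV and 9.83 TPM in WT), the polyglutamylase gene TTLL1 (1.69 and 4.46 TPM) and, between WT and MT, the stathmin gene STMN3 (0.567 and 2.67 TPM) also passed, all under 10 TPM and named after their values were seen. In translational efficiency TUBD1 was higher and SVBP and STMN3 lower of 79 genes in WT over EV, the ligase gene TTLL3 was higher of 78 in MT over EV, and SVBP and STMN3 were lower of 79 in WT over MT. These came to 3.8%, 1.28% and 2.53% of the measured pathway genes, beside 4.21%, 3.51% and 4.82% of all genes. TUBG1, the main gamma-tubulin gene, had 122 TPM for EV, 124 for WT and 137 for MT.

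In the folding list (21 genes) and the autoregulation list (5 genes) 0 genes passed the rule in the 9 comparisons, where 0.29% to 4.82% of all genes were called, so that lists of this size would hold few calls in any case. The folding list's medians ran from -0.02 (efficiency, MT over EV) to 0.14 (mRNA, WT over EV, with 13 of 21 genes above 0), beside -0.01 to 0.04 over all genes. The 8 measured subunit genes of the chaperonin CCT are a part of this list that was not fixed beforehand. All were above 0 in mRNA of WT over EV (0.16 to 0.26), as were 48.9% of all genes. The same held in mRNA of MT over EV (0.03 to 0.19) and of WT over MT (0.04 to 0.17). There 48.7% and 51.0% of all genes were above 0. These comparisons share libraries, and the first follows from the others by addition on the log2 scale, so they are not independent. The 8 folding genes below 0 in mRNA of WT over EV lay outside CCT, the lowest being PFDN1 (-0.38). In footprints of WT over EV 7 of the 8 CCT genes were above 0, up to 0.35 (CCT7), and CCT5 was at -0.14. In footprints of MT over EV 5 of the 8 CCT genes were above 0, and in those of WT over MT all 8 were. Of all genes 53.4%, 52.1% and 51.6% were above 0 in footprints of WT over EV, MT over EV and WT over MT. In efficiency 5 of the 8 CCT genes were above 0 in WT over EV, 2 in MT over EV and 7 in WT over MT. CCT5, the most abundant, had 443 FPKM for EV, 503 for WT and 457 for MT, and 736, 670.5 and 601 TPM in footprints, and CCT3 had 453, 567 and 438 TPM. TTC5, the reader of nascent tubulin, is given for its role: it had 1.60, 2.47 and 2.56 FPKM and 6.42, 12.1 and 10.5 TPM in EV, WT and MT. CNOT1, the scaffold of the CCR4-NOT complex, had 27.9, 25.6 and 25.6 TPM, and CNOT11 had 18.0, 15.8 and 15.8 TPM. Among genes that act on microtubules, STMN1, which binds free dimers, had 1815, 2121 and 1970 TPM and the plus-end protein gene MAPRE1 had 290.5, 286.5 and 286 TPM. Of the gamma-tubulin complex, which nucleates microtubules, MZT2B had 233, 215 and 227 TPM and MZT1 had 157, 135 and 127 TPM.

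Genes whose pattern lay nearest to the summed tubulin value were found by Euclidean distance over the 4 log2 differences from EV (WT and MT in each assay), among 558 genes at 100 units or more in all 6 libraries. They were FABP5 (distance 0.06), XRCC6 (0.06), HMGN2 (0.07), GNB1 (0.07) and NME2 (0.08), beside 0.28 for the median gene. The tubulin sum itself differed from EV by 0.07 in both mRNA comparisons, by 0.02 in WT footprints and by -0.06 in MT footprints, so its nearest genes are ones with small differences.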

How the data were processed

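The authors deposited 1 table with a column per library. Its headers give no unit. The deposited RNA-seq columns sum to between 459938 and 469859 and were read as FPKM, although TPM over a larger gene set is possible; the deposited Ribo-seq columns each sum to 1000000 and were read as TPM. Per the labels' protocols, cells received cycloheximide, RNase I made the footprints and libraries came from NEBNext kits; per the submitters' processing notes the build is hg18. The sources used here do not name the aligner, the assignment of reads or the annotation. Rows without a gene name (605 of 20307) and 7 symbols with several values were left out. Differences were taken on log2(value + 1), computed over all genes with Python 3.11.15, pandas 2.3.3 and NumPy 2.4.6, with no test because there is 1 library per group. All 10 members are named, with PHYHD1 and the 5 genes nearest in pattern. Pathway genes past the rule at 10 units are named (up to 4 per list and comparison) or, for a list with none, its 2 most abundant in footprints. TTC5, TUBG1, VASH1, VASH2, PFDN1, the CCT genes as a group and pathway genes past the rule under 10 units were named outside this rule. The reference genes ACTB and GAPDH are left out of the text. Members and lists were chosen with earlier results of these data known. Alternatives were pseudocounts of 0.1 and 10, minimums of 0 and 10 units, a 1.5-fold rule and 2 other scalings.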

Additional observations from a re-analysis of the deposited data

How the results depend on the processing

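No paired analysis was possible because each label has 1 library per assay, and no library could be left out. The count of 0 tubulin genes past the rule was the same in all 9 comparisons with pseudocounts of 0.1 and 10, with no minimum and a minimum of 10 units, and under both other scalings. The share of all genes called was 1.32% to 8.46% with 0.1 added and 0.0272% to 0.454% with 10 added. It was 0.163% to 3.31% with no minimum, 0.137% to 1.89% with a minimum of 10 units and 0.29% to 4.82% under the scalings. At such shares 8 to 10 members would hold few calls in any case. A 1.5-fold rule gave 1 gene, TUBB3, in footprints of WT over EV (12.1% of all genes called) and 1, TUBB3, in efficiency of WT over EV (16.9% called), and 2, TUBA1A and TUBB3, in efficiency of WT over MT (17.7% called). Without TUBA1B, the most abundant member, the alpha mRNA sum differed from EV by 0.19 in WT and by 0.16 in MT on the log2 scale, beside 0.07 and 0.04 with it. Some footprint sums turned direction in the same way: the alpha sum of MT over EV went from -0.04 to 0.01 without TUBA1B, and the beta sum of WT over MT from 0.10 to -0.05 without TUBB, while that of WT over EV went from -0.01 to -0.15. With a minimum of 100 units, 0 of 4 members lay above the median footprint-to-mRNA ratio in EV, 0 in WT and 0 in MT, where fewer members were measured. The family sums otherwise moved by no more than the robust SD of genes at 100 units or more, and counts by no more than 1.5 times. Read totals are unknown, so values of TUBB2B and TUBA1A mRNA carry a counting error that cannot be given.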
